A study of Mus musculus with 6 samples.

Results

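The Zfp genes examined here code for zinc finger proteins whose mouse symbol is Zfp followed by a number. Members were the protein-coding genes with such a symbol in GENCODE release M21, Zfp36 left out because it is an RNA-binding protein of another class, with a gene span under 300 kb and a mean raw count of at least 100 over the 6 libraries. These limits left 242 of 364 such genes, in a table of 54446 genes of which 14956 were tested, and all 242 members passed the filter on low counts. The members were thus selected on their mean raw count and span, which are given as a description only. Of the genes left out, 120 had fewer counts and 2 had longer spans. Zfp362 and Zfp953 lay just inside the count limit, with mean raw counts of 101.67 and 104.1, and Zfp677 and Zfp976 just outside it, with 98.5 and 97.8. Zfp704 and Zfp521 lay just inside the span limit at 183.07 and 285.77 kb, and Zfp697 and Zfp407 outside it at 371.35 and 461.7 kb.

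Gene expression was measured by RNA sequencing of poly(A) RNA in TRAMP-C2 cells, a prostate cancer line of strain C57BL/6 from a TRAMP mouse, in which a probasin promoter drives the SV40 early region in the prostate epithelium. All groups were grown in medium with insulin and an androgen. The 3 groups were control cells with no agent, cells given 2 µM oxaliplatin and cells given 2 µM cisplatin, all collected after 24 h, with 2 libraries each, and the comparisons ask how these platinum drugs, which crosslink DNA, change the transcriptome at equal dose and time. The labels number the duplicates without saying whether they were separate cultures, so p-values measure only the spread between these libraries, which may be technical. The libraries held between 21345312 and 24041767 counts each, and the smallest level that 3 counts can show was 0.125 to 0.141 CPM (counting error only). Of 10 prostate epithelial markers, 5 reached a mean raw count of 10, and their summed level was 85.6 to 103.4 CPM, with Krt5 at 0 in all libraries. All 5 fibroblast markers passed that level, with a sum of 10530 to 13610, whereas leukocyte markers summed to at most 0.134 and endothelial markers to at most 0.387 CPM. The summed fibroblast markers were higher in control libraries (12730 and 13610) than in oxaliplatin (11050 and 11080) or cisplatin libraries (10530 and 10720), as was the prostate epithelial sum (96.5 to 103.4 in control, 85.6 to 90.4 in oxaliplatin and 85.7 to 87.1 in cisplatin libraries). The fibroblast genes did not move together, since Col1a1 and Col1a2 fell with both drugs, Vim rose with both, Pdgfra rose with oxaliplatin and Dcn did not pass. The part of these shifts in the results was not tested.

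A C2H2 zinc finger is a short loop of protein held by a zinc ion between a pair of cysteines and a pair of histidines, and arrays of such fingers read DNA sequence base by base. Many Zfp proteins also carry a Krüppel-associated box (KRAB), which recruits the corepressor TRIM28 (KAP1) with the histone methyltransferase SETDB1 and heterochromatin proteins, and are best known for silencing retroelements and guarding imprints. KRAB zinc finger genes arose by tandem duplication and stand in clusters on a few chromosomes, whereas members without KRAB are mostly single, conserved genes with roles in transcription, mitosis, RNA processing and translation.

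A sequence profile of the KRAB box matched annotated proteins of 137 members, and the other 105, in which divergent boxes could have been missed, are called members without KRAB. Members with KRAB had a median of 12 fingers, a median transcript GC content of 41.3% and a median mean raw count of 220.2. Members without KRAB had a median of 8 fingers, a GC content of 51.2% and a mean raw count of 600.3, and the other 9821 protein-coding genes under the same limits had 50.3% and 957.8. The members therefore sat low in the range of expression, and together they took 0.594% of all counts. The largest array, 41 fingers, was in Zfp142, and 7 members had no C2H2 finger by the pattern used, which was applied to 1 annotated protein per gene. Reads that fit several genes were divided among them. Of members with KRAB 67.2%, against 38.1% of those without, had an expected count that was not whole (further than 0.001 from an integer) in at least 1 library. Which genes shared these reads was not traced, and the share among the other protein-coding genes is not given here. The spans of 33 members overlap another coding gene.

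Promoter sequence is shown for members that stood apart in the comparisons, 3 without KRAB that rose after cisplatin (Zfp367, Zfp207 and Zfp180), 1 with KRAB that had higher counts after both drugs (Zfp781), 1 without KRAB that was higher with oxaliplatin than in both other groups (Zfp263), and 1 from a KRAB cluster in which 3 of 5 members fell after cisplatin (Zfp266). Each is the 250 bases before the RefSeq start (GRCm38.p6), written 5′ to 3′ on the strand of the gene, with capitals for matches to 6 motifs searched on both strands. The first was CCAAT, the box bound by the factor NF-Y, which is common in promoters of the cell cycle. The next was CCGGAAG, bound by ETS factors, and after it TTGGCGC, a core sequence read by E2F factors. The remaining motifs were TGACGTC, the core of the cAMP response element, then AAGATGG, the core of the site of the zinc finger protein YY1, and last TATAAA, the box at which TBP starts transcription.
Zfp367: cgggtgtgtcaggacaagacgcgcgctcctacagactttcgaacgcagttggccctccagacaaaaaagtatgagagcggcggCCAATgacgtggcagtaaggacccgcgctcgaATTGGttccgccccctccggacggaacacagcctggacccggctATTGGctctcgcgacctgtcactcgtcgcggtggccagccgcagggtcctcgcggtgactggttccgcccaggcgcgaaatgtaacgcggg
Zfp207: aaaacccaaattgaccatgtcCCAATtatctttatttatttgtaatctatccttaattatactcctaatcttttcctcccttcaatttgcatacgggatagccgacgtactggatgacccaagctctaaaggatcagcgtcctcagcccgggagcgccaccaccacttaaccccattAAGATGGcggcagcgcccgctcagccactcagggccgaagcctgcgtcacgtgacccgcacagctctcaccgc
Zfp180: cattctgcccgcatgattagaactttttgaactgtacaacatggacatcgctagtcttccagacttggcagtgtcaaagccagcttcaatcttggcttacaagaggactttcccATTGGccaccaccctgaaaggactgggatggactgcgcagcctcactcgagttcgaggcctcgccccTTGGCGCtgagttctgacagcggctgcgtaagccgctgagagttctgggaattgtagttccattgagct
Zfp781: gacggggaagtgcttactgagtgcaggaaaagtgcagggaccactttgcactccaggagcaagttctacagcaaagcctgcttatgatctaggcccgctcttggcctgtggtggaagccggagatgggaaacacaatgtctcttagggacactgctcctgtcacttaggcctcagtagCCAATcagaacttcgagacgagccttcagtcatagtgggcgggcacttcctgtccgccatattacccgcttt
Zfp263: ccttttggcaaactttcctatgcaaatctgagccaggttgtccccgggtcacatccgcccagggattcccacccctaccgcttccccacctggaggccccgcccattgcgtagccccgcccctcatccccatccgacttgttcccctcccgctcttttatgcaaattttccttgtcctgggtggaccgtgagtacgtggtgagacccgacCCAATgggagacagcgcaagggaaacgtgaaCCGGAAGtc
Zfp266: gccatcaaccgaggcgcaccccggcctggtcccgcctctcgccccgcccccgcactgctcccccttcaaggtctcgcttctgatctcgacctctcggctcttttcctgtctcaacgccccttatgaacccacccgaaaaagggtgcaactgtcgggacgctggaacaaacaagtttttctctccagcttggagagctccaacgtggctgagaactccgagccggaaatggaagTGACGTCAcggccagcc
These windows lie at chr13:64153200-64153449 (minus strand) for Zfp367, chr11:80383029-80383278 (plus strand) for Zfp207, chr7:24081647-24081896 (plus strand) for Zfp180, chr10:81930513-81930762 (minus strand) for Zfp781, chr16:3743849-3744098 (plus strand) for Zfp263 and chr9:20521420-20521669 (minus strand) for Zfp266. A promoter was listed for 195 members. CCAAT was present in 53.0% of the 117 windows of members with KRAB and in 41.0% of the 78 without, beside 37.1% of those of the other protein-coding genes and 34.5% of all 27025 genes with a window. CCGGAAG was present in 22.2% and 12.8% of member windows, beside 15.7% and 7.05%. Zfp367 held 3 CCAAT matches, 1 on the strand of the gene and 2 on the other, and Zfp180 held 1 CCAAT and 1 TTGGCGC match, the latter in 5.13% of member windows, 3.91% of those of the other genes and 2.05% of all. Zfp781 held 1 CCAAT match, and Zfp207 held 1 CCAAT and 1 AAGATGG match. In Zfp263 a CCAAT match was followed by CCGGAAG nearer the start. The capitals of Zfp266 are a palindrome in which TGACGTC overlaps its own reverse complement. These are matches of letters and were not tested as binding sites. Median promoter GC content was 52.0% for members with KRAB, 60.2% without and 60.8% for the other genes.

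More of the family fell than rose after cisplatin, and few members changed after oxaliplatin. After cisplatin 43 members were lower and 13 higher than in control cells, and 186 did not pass the test (DESeq2, adjusted p under 0.05 over the tested genes kept by a filter on mean count). That is 17.8% lower and 5.37% higher, beside 12.4% lower and 15.7% higher among all genes tested and 15.5% lower and 22.4% higher among the other protein-coding genes under the same limits. Over all levels the share of members called lower was near that of the comparison genes, whereas the share called higher was well under it. At mean raw counts of 100 to 300, 11.6% of members and 12.7% of the other protein-coding genes were called lower. From 300 to 1000 these shares were 23.9% and 16.6%, and at 1000 or more 24.1% and 15.7%. The shares called higher were 1.65% and 7.42%, 5.43% and 13.7%, and 20.7% and 33.7% in the same ranges. The median log2 fold change of the members was -0.13, beside -0.00083 over all genes tested and 0.02 over the other protein-coding genes, and 179 of 242 members (74.0%) were below 0, beside 47.1% of the other genes. The median member was therefore lower by a small amount, and the middle of the distribution ran from -0.32 to 0.0013 (quartiles). In bulk libraries fewer cells that express a gene and less of its RNA per cell cannot be told apart.

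After oxaliplatin 17 members were lower and 8 higher than in control cells, and 217 did not pass. These are 7.02% and 3.31%, beside 9.5% lower and 10.7% higher among all genes tested and 13.4% and 15.4% among the other protein-coding genes. Over all levels fewer members than comparison genes were called in either direction. At mean raw counts of 300 to 1000, however, the share of members called lower was near the 11.9% of the other genes. It was 1.65% against 6.6% at 100 to 300, and 13.8% against 16.8% at 1000 or more. The shares called higher were 1.65% and 4.19%, 3.26% and 9.19%, and 10.3% and 23.6% in rising order of level. The part of level in these shares was not tested. The median log2 fold change was -0.03, beside -0.0029 over all genes tested and 0.0058 over the other genes, and 140 members were below 0. Both drug groups were compared with the same control libraries, so the comparisons are not independent. The drugs were then compared directly. In oxaliplatin against cisplatin 20 members were higher with oxaliplatin and 4 lower (8.26% and 1.65%), beside 8.62% and 11.3% of all genes tested and 11.1% and 16.5% of the other genes. The median difference was 0.09 on the log2 scale, beside -0.0033 and -0.02, and 162 members were higher with oxaliplatin. With trends in transcript length and GC content removed, the calls were 16 higher and 12 lower, and with edgeR 53 and 12.

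**Figure D1:**
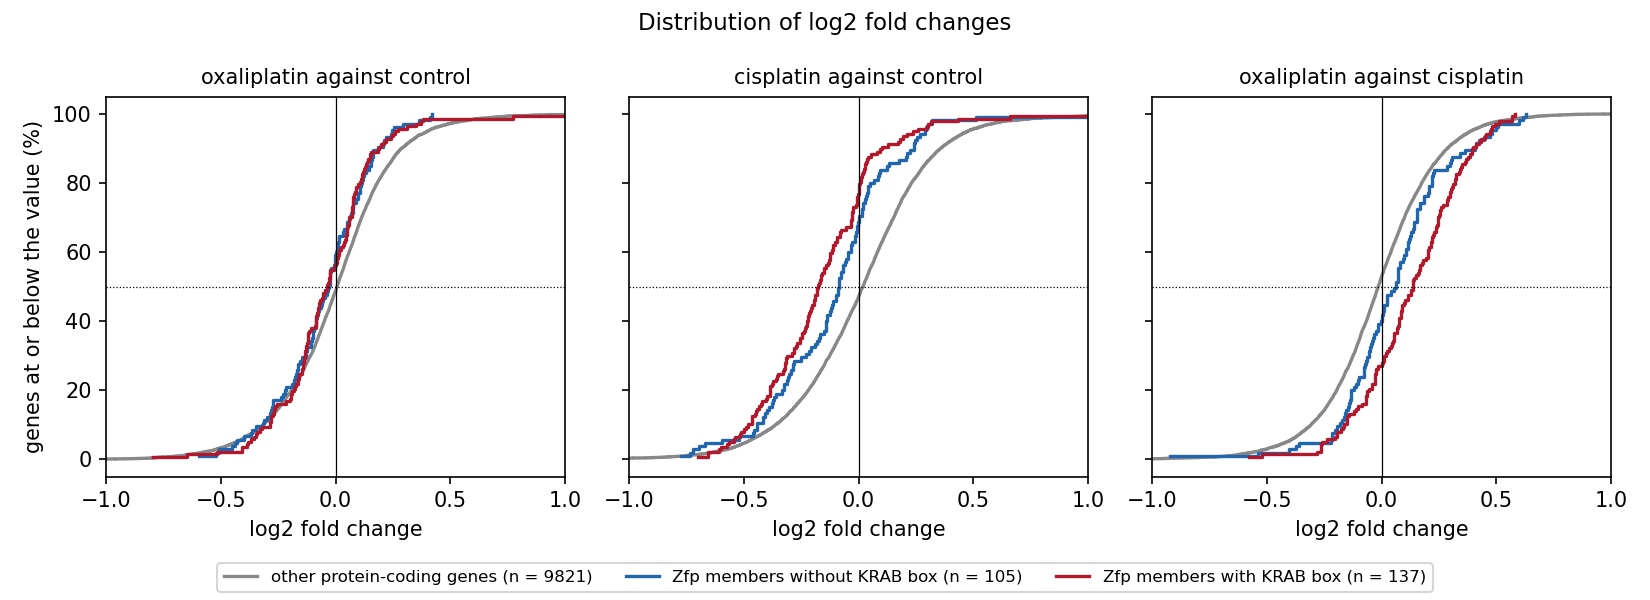
Cumulative distributions of log2 fold changes (x axis, cut at -1 and 1) against the percentage of genes at or below each value (y axis), for the 3 comparisons; red, 137 members with KRAB; blue, 105 without; grey, 9821 other protein-coding genes under the same limits. After cisplatin both member curves lie left of the grey one, with medians of -0.18 and -0.09 against 0.02, and after oxaliplatin the 3 curves run close together.

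With 2 libraries per group the number called depended on each of them. After cisplatin, where 56 members were called, 15 and 18 were called without cisplatin replicates 1 and 2, 25 and 19 without control replicates 1 and 2, and 31 without either oxaliplatin library. After oxaliplatin, in place of 25, these numbers were 3 and 4 without the oxaliplatin libraries, 9 and 7 without the controls and 11 without either cisplatin library. Between the drugs, in place of 24, they were 8 and 9, 11 and 9, and 16 without either control. Over these settings the median after cisplatin ran from -0.16 to -0.12, that after oxaliplatin from -0.0492 without control replicate 1 to -0.0189 without control replicate 2, and that between the drugs from 0.0944 to 0.1021.

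In single libraries the family followed the group in cisplatin cells and the controls were less even. Taking each gene's deviation from its own mean over the 6 libraries (log2 of normalised count + 1), the median over members with KRAB was 0.03 and 0.11 in control replicates 1 and 2, 0.03 and 0.04 in the oxaliplatin libraries, and -0.09 and -0.11 in the cisplatin libraries. Both cisplatin libraries were below all others, and oxaliplatin libraries were at the level of control replicate 1. Members without KRAB stood at 0.06 and 0.04 in control, 0.0052 and -0.0028 in oxaliplatin and -0.05 and -0.03 in cisplatin libraries, so the 3 groups did not overlap. The other protein-coding genes ran from -0.0076 to 0.02 and were highest in the cisplatin libraries. Control replicate 2 exceeded control replicate 1 by a median of 0.07 over members with KRAB, against 0.01 over members without. Without control replicate 2 the KRAB median after oxaliplatin moved from -0.04 to 0.01, and without control replicate 1 to -0.07, so its sign rested on control replicate 2. After cisplatin it was -0.15 and -0.19 in the same settings.

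**Figure D2:**
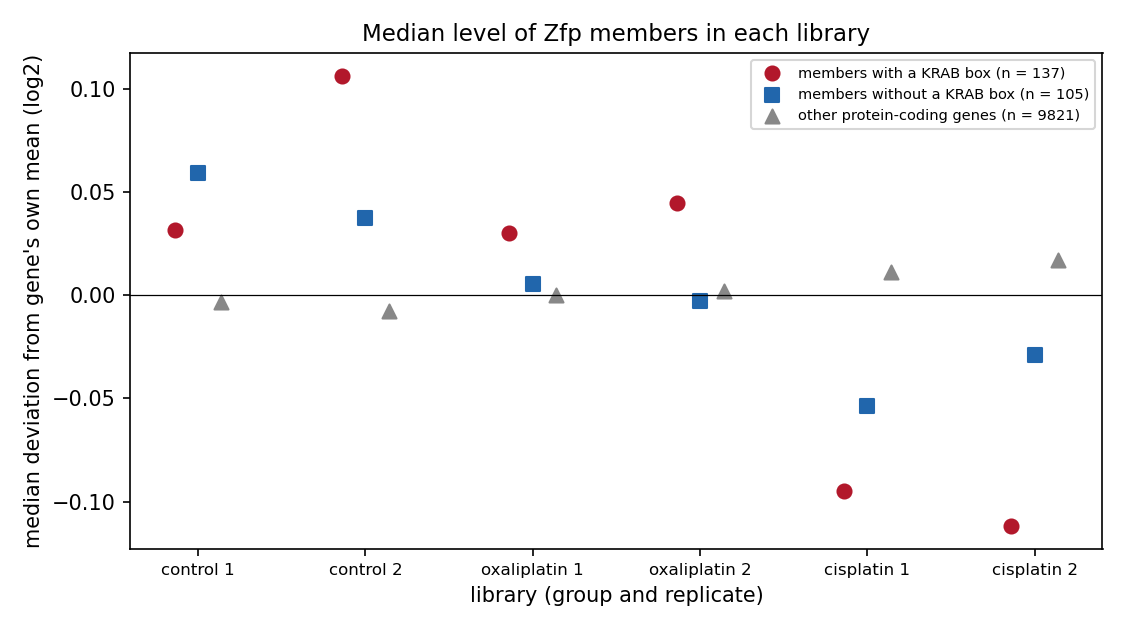
Median deviation of each gene set from the genes' own means over the 6 libraries (y axis, log2 of normalised count + 1) in each library (x axis); red circles, 137 members with KRAB; blue squares, 105 members without; grey triangles, 9821 other protein-coding genes. Both member sets are lowest in the 2 cisplatin libraries, at -0.11 to -0.03, and members with KRAB differ most between the control libraries, at 0.03 and 0.11.

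The shift after cisplatin was seen in members with and without KRAB. Members with KRAB had a median of -0.18, with 107 of 137 below 0, 20 called lower and 4 higher, and members without had -0.09, with 72 of 105 below 0, 23 called lower and 9 higher. The other 57 genes with a KRAB box under the same limits, which bear other names, had a median of -0.15, with 12 called lower and 2 higher. Among 13 Zkscan and Zscan genes, which join zinc fingers to a SCAN domain, the median was -0.19, with 5 called lower and 0 higher by DESeq2. The 34 Zbtb genes, whose fingers follow a BTB domain, had a median of 0.02, with 8 lower and 2 higher. As shares, 14.6% of members with KRAB and 21.9% of those without were called lower. The shares were 21.1% in the other KRAB genes, 38.5% in Zkscan and Zscan and 23.5% in Zbtb genes. Beside them were 12.4% of all genes tested and 15.5% of the other protein-coding genes. The shares called higher were 2.92%, 8.57%, 3.51%, 0% and 5.88% in the same order, beside 15.7% and 22.4%. These sets were described and their differences were not tested. By number of fingers the medians were -0.06 for 38 members with 0 to 4 fingers, -0.12 for 5 to 12 and -0.19 for 13 or more.

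Expression level moved with the shift as well. Among members with a mean raw count from 100 to 300 the median after cisplatin was -0.17 and 96 of 121 (79.3%) were below 0, but the other protein-coding genes in that range also had a negative median, -0.11, with 60.6% below 0. From 300 to 1000 the medians were -0.12 for 92 members and -0.03 for the other genes, and at 1000 or more they were -0.06 for 29 members and 0.07 for the others. In each range the member median was below that of the other genes, by less than in the comparison over all levels, and the part of level in the shift was not tested. By gene span the member medians were -0.08 under 10 kb, -0.14 from 10 to 30 kb and -0.18 from 30 kb, beside 0.05, 0.05 and -0.03 for the other genes. When trends with GC content and length of the transcripts were taken out library by library, the median after cisplatin was -0.17 for members with KRAB and -0.06 for those without, with 30 members called lower and 13 higher. Members with whole counts in all libraries, to which no shared reads had been assigned in part, had a median of -0.15, with 24 of 110 called lower and 8 higher.

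The largest change of the family was a rise of Zfp367 (ENSMUSG00000044934), a transcription factor with 2 fingers at chromosome 13, 64133018 to 64153202, minus strand. Its normalised counts were 898 and 844 in control, 1031 and 1046 in oxaliplatin and 1901 and 2036 in cisplatin libraries. The libraries stood in the order control, oxaliplatin, cisplatin with no overlap between groups. The log2 fold change was 1.18 ± 0.08 (SE) after cisplatin (adjusted p = 1.64e-41) and 0.25 ± 0.09 (SE) after oxaliplatin (adjusted p = 0.0176), and the drugs differed by -0.92 ± 0.08 (SE) (95% interval -1.09 to -0.76, adjusted p = 2.49e-26, DESeq2 in all 3). The first and last of these were called under each of the 15 alternative settings, and the oxaliplatin value in 7 of them, which include none that left out a library (adjusted p = 0.0565 to 0.236).

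Zfp207 was the one member called in opposite directions with the drugs. It codes for BuGZ, a protein that loads the checkpoint protein BUB3 onto kinetochores, and lies at chromosome 11, 80383279 to 80405733, plus strand. Normalised counts were 4813 and 5079 in control, 4316 and 4615 in oxaliplatin and 5770.2 and 5794 in cisplatin libraries. The oxaliplatin libraries were the lowest and the cisplatin libraries the highest. The changes from control were -0.15 ± 0.05 (SE) with oxaliplatin (DESeq2 adjusted p = 0.0272) and 0.23 ± 0.05 (SE) with cisplatin (adjusted p = 0.000187), and the difference between drugs was -0.37 ± 0.05 (SE) (95% interval -0.48 to -0.27, adjusted p = 1.23e-10). The fall with oxaliplatin was -0.20 to -0.10 when 1 library was left out and then passed only without control replicate 1 (adjusted p = 0.0389), whereas the other values passed in all 15 alternative settings.

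Zfp180, at chromosome 7, 24081924 to 24107713, plus strand, rose with cisplatin and did not pass with oxaliplatin. Its normalised counts were 545 and 572 in control, 525 and 573 in oxaliplatin and 815 and 778 in cisplatin libraries. Control and oxaliplatin libraries overlapped, and both cisplatin libraries were higher. The change was 0.51 ± 0.11 (SE) with cisplatin (DESeq2 adjusted p = 5.77e-05) and -0.03 ± 0.12 (SE) with oxaliplatin (95% interval -0.25 to 0.20), and the drugs differed by -0.54 ± 0.11 (SE) (adjusted p = 2.82e-05). Zfp597, which with Zfp180, Zfp207 and Zfp367 made up the members lower with oxaliplatin than with cisplatin, had normalised counts of 377 and 413 in control, 302 and 332 in oxaliplatin and 477 and 468 in cisplatin libraries. Its groups did not overlap, with control between the drugs, and it differed between the drugs by -0.58 ± 0.14 (SE) (DESeq2 adjusted p = 0.00047), although neither change from control passed. The call was lost without oxaliplatin replicate 1 (0.0982) or cisplatin replicate 1 (0.0683). Its gene span overlaps Naa60 and Zfp174.

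Among members with KRAB, Zfp781 at chromosome 10, 81901911 to 81930480, minus strand had the largest rise with either drug. Its normalised counts were 77.8 and 58.1 in control, 154 and 144 in oxaliplatin and 202 and 90 in cisplatin libraries. Both treated groups were above both controls, and cisplatin replicate 1 stood above all other libraries. Changes were 1.14 ± 0.38 (SE) with oxaliplatin (DESeq2 adjusted p = 0.0136) and 1.11 ± 0.38 (SE) with cisplatin (adjusted p = 0.0141). Without cisplatin replicate 1 the latter was 0.41 (adjusted p = 0.575), without control replicate 2 the changes were 0.94 (0.424) and 0.91 (0.403), and without oxaliplatin replicate 2 the former was 1.18 (0.0871). No C2H2 finger was found in the 1 annotated protein searched, that with the longest coding part. Its other annotated proteins were not searched for fingers. Its counts were not whole in any of the 6 libraries. Zfp948 on chromosome 17 rose with both drugs, with 696 and 731 in control, 874 and 852 in oxaliplatin and 894 and 885 in cisplatin libraries. Its changes were 0.27 ± 0.10 (SE) (DESeq2 adjusted p = 0.0228) and 0.32 ± 0.10 (SE) (adjusted p = 0.0053). Without control replicate 1 they were 0.24 (adjusted p = 0.243) and 0.28 (0.126), and both calls were also lost without control replicate 2 (0.112 and 0.0527) or either library of the drug (0.117 to 0.311), and the oxaliplatin call without either cisplatin library (0.103 and 0.107). Zfp850, in a cluster on chromosome 7, rose with cisplatin, with 116 and 132 in control, 157 and 167 in oxaliplatin and 179 and 214 in cisplatin libraries and a change of 0.66 ± 0.22 (SE) (DESeq2 adjusted p = 0.0134), a call lost without any 1 of the 6 libraries (0.0596 to 0.301).

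The 5 largest rises with oxaliplatin were those of Zfp781, Zfp97, Zfp35, Zfp263 and Zfp948. Zfp97, a KRAB gene, had 129 and 126 in control, 222 and 213 in oxaliplatin and 173 and 172 in cisplatin libraries, and a change of 0.77 ± 0.21 (SE) (DESeq2 adjusted p = 0.00137), with cisplatin libraries between control and oxaliplatin. Zfp263, a SCAN-domain factor, had 541 and 538 in control, 699 and 734 in oxaliplatin and 555 and 511 in cisplatin libraries. Control and cisplatin libraries overlapped and both oxaliplatin libraries were higher, by 0.41 ± 0.11 (SE) against control (DESeq2 adjusted p = 0.00257) and 0.43 ± 0.11 (SE) against cisplatin (adjusted p = 0.00161). Zfp35 on chromosome 18 had 541 and 536 in control, 694 and 745 in oxaliplatin and 671 and 612 in cisplatin libraries and changed by 0.42 ± 0.11 (SE) (DESeq2 adjusted p = 0.00203). The calls of Zfp263 and Zfp35 against control were lost without either control or either oxaliplatin library (adjusted p up to 0.169), that of Zfp263 against cisplatin without either oxaliplatin library or cisplatin replicate 2 (0.0677 to 0.139), and that of Zfp97 without control replicate 2 (0.0584) or oxaliplatin replicate 2 (0.0789).

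The largest falls with oxaliplatin were those of Zfp810, Zfp746, Zfp467, Zfp9 and Zfp365. Zfp746 (PARIS), a repressor of the mitochondrial coactivator gene Ppargc1a, had 541 and 529 in control, 357 and 324 in oxaliplatin and 336 and 342 in cisplatin libraries. All treated libraries were below both controls, with changes of -0.65 ± 0.14 (SE) with oxaliplatin (DESeq2 adjusted p = 2.66e-05) and -0.66 ± 0.14 (SE) with cisplatin (adjusted p = 1.63e-05), and the drugs differed by 0.0092 ± 0.14 (SE) (95% interval -0.27 to 0.28). Both calls held in all 15 alternative settings. Zfp467, a factor that favours fat over bone cell fate, lies in the same chromosome 6 cluster and had 329 and 344 in control, 235 and 234 in oxaliplatin and 207 and 201 in cisplatin libraries. Its changes were -0.52 ± 0.17 (SE) (DESeq2 adjusted p = 0.00931) and -0.72 ± 0.17 (SE) (adjusted p = 0.000129), and the first lost its call without any 1 library (0.0573 to 0.192). Zfp810 had 182 and 174 in control, 94.7 and 111 in oxaliplatin and 125 and 121 in cisplatin libraries. Zfp9 had 794 and 839 in control, 533 and 608 in oxaliplatin and 675 and 694 in cisplatin libraries. In both the oxaliplatin libraries were the lowest. Their changes with oxaliplatin were -0.80 ± 0.24 (SE) (DESeq2 adjusted p = 0.00464) and -0.52 ± 0.11 (SE) (adjusted p = 6.29e-05), while with cisplatin they were -0.54 ± 0.23 (SE) and -0.25 ± 0.11 (SE) and did not pass (adjusted p = 0.0621 and 0.07). The oxaliplatin call of Zfp810 was lost without control replicate 2 or oxaliplatin replicate 2, and that of Zfp9 without oxaliplatin replicate 1. Zfp810 had an adjusted p with oxaliplatin in 13 of 15 alternative settings, and without one it was not called. Zfp365, linked to genome stability, had 385 and 492 in control, 299.9 and 316 in oxaliplatin and 398 and 393 in cisplatin libraries and a change with oxaliplatin of -0.51 ± 0.16 (SE) (DESeq2 adjusted p = 0.00982), which was -0.32 (0.345) without control replicate 2 and also lost its call without oxaliplatin replicate 1 (0.177) or 2 (0.0996).

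The largest falls with cisplatin were between -0.78 and -0.70 on the log2 scale. Zfp449, a SCAN-domain factor on the X chromosome, had 289.5 and 279.8 in control, 209.8 and 232 in oxaliplatin and 168 and 165 in cisplatin libraries and changed by -0.78 ± 0.18 (SE) (DESeq2 adjusted p = 0.000186). Its groups did not overlap and the oxaliplatin libraries lay between the others. Zfp1 had 521 and 495 in control, 461 and 465 in oxaliplatin and 341 and 283 in cisplatin libraries, with a change of -0.70 ± 0.15 (SE) (DESeq2 adjusted p = 1.49e-05) and of -0.13 ± 0.14 (SE) with oxaliplatin (adjusted p = 0.562). The calls of Zfp449, Zfp1 and Zfp467 after cisplatin held in all 15 alternative settings. Zfp362, just inside the count limit, had 135 and 134 in control, 93.8 and 83.9 in oxaliplatin and 78.4 and 82.9 in cisplatin libraries and a change of -0.74 ± 0.27 (SE) (DESeq2 adjusted p = 0.0215), and Zfp704, also named glucocorticoid-induced gene 1, had 339 and 361 in control, 301 and 302 in oxaliplatin and 194 and 238 in cisplatin libraries and -0.70 ± 0.17 (SE) (adjusted p = 0.000406). The call of Zfp362 was lost without any 1 library (0.085 to 0.241) and that of Zfp704 without cisplatin replicate 1 (0.0911).

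**Figure D3:**
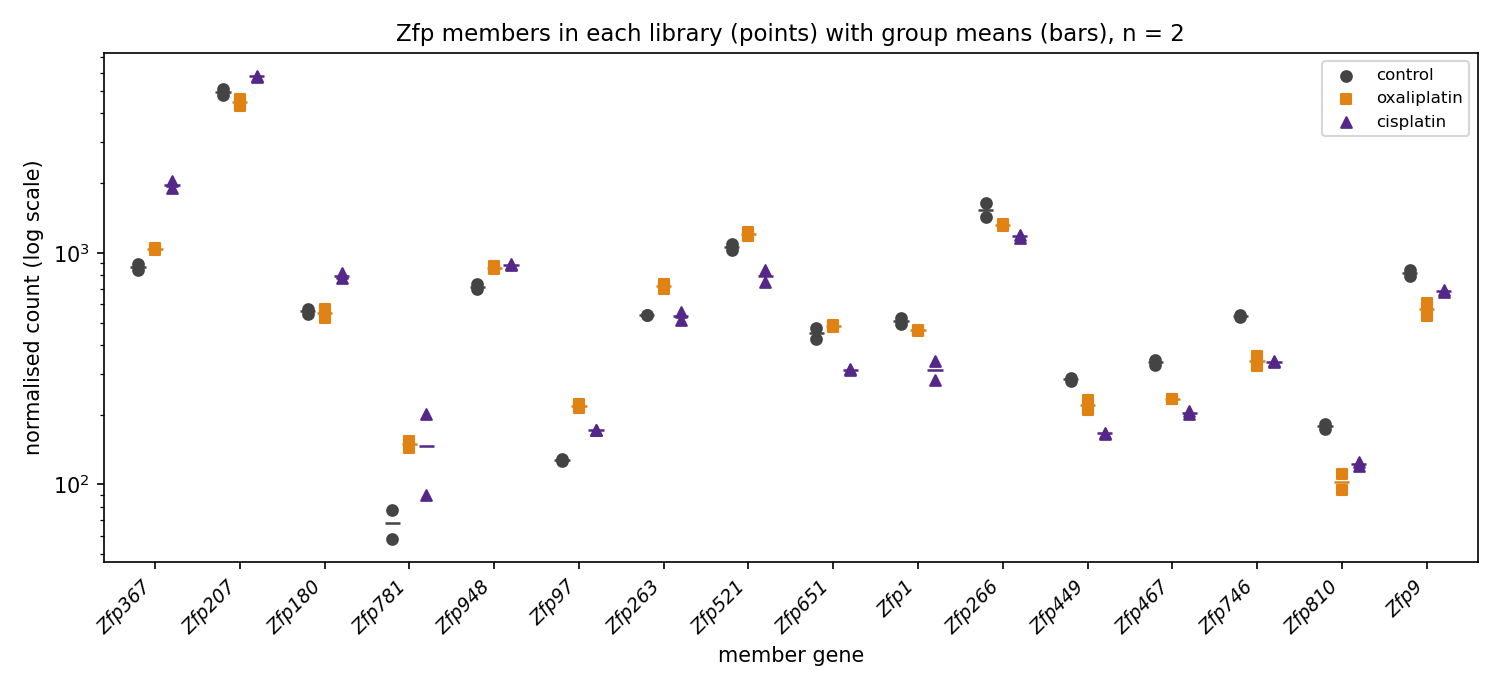
Normalised counts (y axis, log scale) of 16 members (x axis) in each library; points, libraries; bars, means of 2; grey circles, control; orange squares, oxaliplatin; purple triangles, cisplatin. Zfp367 rises from 844 to 898 in control to 1901 to 2036 in cisplatin libraries, Zfp207 is lowest with oxaliplatin and highest with cisplatin, and the cisplatin libraries of Zfp781 stand apart at 90.1 and 202.0.

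Of the members called with both drugs, 10 fell with each (Zfp41, Zfp236, Zfp260, Zfp358, Zfp395, Zfp467, Zfp523, Zfp532, Zfp652 and Zfp746), 4 rose with each (Zfp106, Zfp367, Zfp781 and Zfp948), and Zfp207 was split. These names are the complete sets and include genes chosen after their values were seen. Both drugs were compared with the same control libraries, and the share of all genes called with both is not given here. The 10 that fell include Zfp523, a relative of Zfp143, with 739.9 and 640.4 in control, 553 and 514 in oxaliplatin and 523 and 491 in cisplatin libraries, and Zfp395, which binds the promoter of the huntingtin gene, with 2302 and 2240.4 in control, 1897 and 1953 in oxaliplatin and 1709 and 1718 in cisplatin libraries. In both genes the controls were the highest libraries.

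The 20 members higher with oxaliplatin than with cisplatin ranged from 0.13 to 0.63 on the log2 scale. Of these, 13 were also called lower with cisplatin than in control cells. Both comparisons use the same cisplatin libraries, so these calls are not independent. The share of such double calls over all genes is not given here. Zfp521, a regulator of haematopoietic, neural and bone progenitors on chromosome 18, had 1033 and 1093 in control, 1183 and 1232 in oxaliplatin and 749.9 and 844 in cisplatin libraries. Both oxaliplatin libraries were the highest and both cisplatin libraries the lowest, a difference of 0.60 ± 0.10 (SE) (95% interval 0.41 to 0.79, DESeq2 adjusted p = 2.37e-08). Zfp651, the mouse name of ZBTB47, had 472 and 427 in control, 479 and 488 in oxaliplatin and 315 and 311 in cisplatin libraries and differed by 0.63 ± 0.14 (SE) (adjusted p = 6.69e-05, DESeq2). Zfp239 (MOK-2), which binds DNA and RNA, had 187 and 199 in control, 222 and 235 in oxaliplatin and 151 and 147 in cisplatin libraries and differed by 0.62 ± 0.20 (SE) (DESeq2 adjusted p = 0.01) although neither change from control passed. Zfp1 differed by 0.57 ± 0.15 (SE) (DESeq2 adjusted p = 0.000869) and Zfp74 by 0.58 ± 0.22 (SE) (adjusted p = 0.0385). The results for Zfp521 and Zfp651 held in all 15 alternative settings. The other 3 were lost in several settings that left out a library. Zfp1 lost its call without either oxaliplatin library or cisplatin replicate 2, and Zfp239 without either oxaliplatin library or cisplatin replicate 1. Zfp74 lost its call without each library but cisplatin replicate 2, and without that one it had no adjusted p. Zfp239 also had an adjusted p in only 14 of 15 alternative settings.

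**Figure D4:**
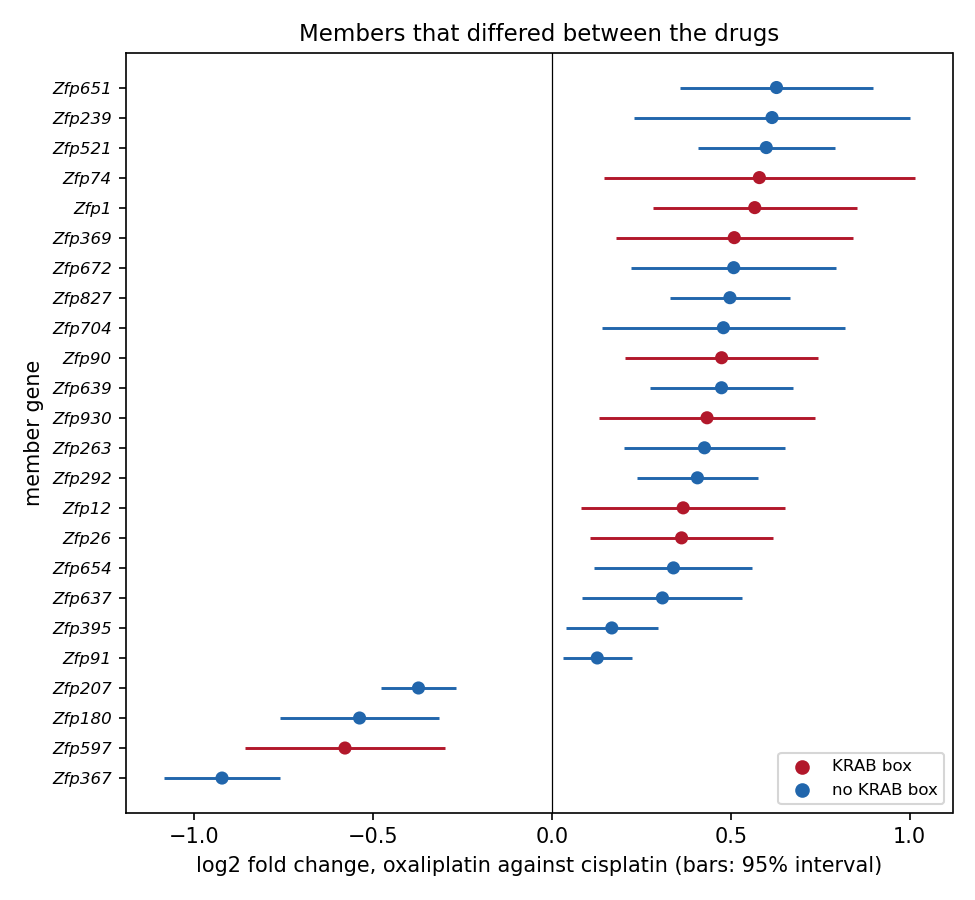
Log2 fold change of oxaliplatin against cisplatin with its 95% interval (x axis) for the 24 members that differed between the drugs (y axis), positive where the oxaliplatin level was higher; red, members with KRAB; blue, members without. Of these, 20 lie above 0, at 0.13 to 0.63, and Zfp207, Zfp180, Zfp597 and Zfp367 lie below it, at -0.37 to -0.92.

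Clusters were defined as 3 or more members with at most 500 kb between neighbours. There were 19, with 109 members, of which 83 had KRAB, and the other 133 members included 54 with KRAB. After cisplatin the median was -0.14 inside clusters and -0.13 outside, and for members with KRAB -0.18 inside and -0.16 outside, so the medians inside and outside were close. Of the 19 clusters 17 had a median below 0 after cisplatin and 14 after oxaliplatin. After cisplatin 18 members (16.5%) were called lower and 4 (3.67%) higher inside clusters, and 25 (18.8%) and 9 (6.77%) outside. After oxaliplatin 4.59% inside and 9.02% outside were called lower, and 2.75% and 3.76% higher. Between the drugs 2.75% inside and 12.8% outside were called higher with oxaliplatin, and 0.917% and 2.26% lower. Median mean counts were 237.0 inside and 442.1 outside, and the part of level in these shares was not tested.

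The largest cluster held 19 members, all with KRAB, at chromosome 17, 21008903 to 23599487. Its median was -0.11 after cisplatin and 0.04 after oxaliplatin, with 16 and 7 members below 0, and only Zfp948 was called, as higher in both. Counts were not whole in at least 1 library for 18 of these 19 members. A second chromosome 17 cluster of 9, from Zfp871 to Zfp414, had a median of -0.03 after cisplatin, with Zfp799 called (-0.54 ± 0.19 (SE), DESeq2 adjusted p = 0.019). The chromosome 9 cluster from Zfp560 to Zfp846, 20345136 to 20605409, held 5 KRAB members, all below 0 after both drugs, with a median of -0.38 after cisplatin and -0.12 after oxaliplatin. Zfp266, its member with the smallest adjusted p, had 1423 and 1638 in control, 1335 and 1299.7 in oxaliplatin and 1163 and 1197 in cisplatin libraries. Both cisplatin libraries were the lowest, by -0.38 ± 0.09 (SE) (DESeq2 adjusted p = 0.000304), and by -0.27 (0.0722) without control replicate 2. Zfp26 and Zfp846 were also called lower, at -0.39 ± 0.13 (SE) and -0.45 ± 0.17 (SE) (DESeq2 adjusted p = 0.0127 and 0.0304), and Zfp560 was at -0.00051 ± 0.19 (SE). In the chromosome 6 cluster from Zfp398 to Zfp467, 47835661 to 48445825, all 7 members were below 0 after both drugs, but 3 of them, Zfp398, Zfp746 and Zfp467, made up the calls after cisplatin and 2, Zfp746 and Zfp467, after oxaliplatin, while Zfp282 was at -0.0054 ± 0.11 (SE) after cisplatin. The lowest cluster median after cisplatin, -0.41, was that of 3 members on chromosome 5, 138139702 to 138619761, where Zfp113 and Zfp157 were called (-0.52 ± 0.19 (SE) and -0.41 ± 0.16 (SE), DESeq2 adjusted p = 0.0219 and 0.0426).

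On chromosome 7, which held 50 members, the cluster from Zfp84 to Zfp146 (29768552 to 30169750) had a median of -0.29 after cisplatin and 0.04 after oxaliplatin. Zfp383 and Zfp260 were called lower with cisplatin, and Zfp568 was above 0. Zfp260 was called with both drugs at about the same value, -0.28 ± 0.09 (SE) with oxaliplatin (DESeq2 adjusted p = 0.0115) and -0.29 ± 0.09 (SE) with cisplatin (adjusted p = 0.00905). The cluster from Zfp606 to Zfp324 had 4 members, all below 0 after cisplatin, with Zfp606 called (-0.60 ± 0.21 (SE), DESeq2 adjusted p = 0.0196), and that from Zfp60 to Zfp850 ran from -0.38 for Zfp60 to 0.66 for Zfp850, both called. In the cluster from Zfp180 to Zfp428, Zfp180 rose while the other 5 members were below 0 and not called. Neighbours within a cluster thus took opposite directions. The clusters from Zfp628 to Zfp865 and from Zfp553 to Zfp646 had medians of -0.19 and -0.12, with Zfp865 called in the first (-0.38 ± 0.14 (SE), DESeq2 adjusted p = 0.025) and 0 of 8 in the second (DESeq2; smallest adjusted p 0.206 for Zfp629). The calls of Zfp260 with either drug, and of Zfp60, Zfp606 and Zfp865 with cisplatin, were lost without any 1 of the 6 libraries (0.0557 to 0.311), as were those of Zfp738 on chromosome 13 and Zfp799 on chromosome 17 (0.0806 to 0.28).

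On chromosome 13 the 8 members from Zfp595 to Zfp65 (67312998 to 67729173), all with KRAB, had a median of -0.22 after cisplatin, with 7 below 0 and Zfp595 and Zfp738 called lower (-0.61 ± 0.24 (SE) and -0.44 ± 0.17 (SE), DESeq2 adjusted p = 0.0345 and 0.0281). On chromosome 8 the 4 members from Zfp930 to Zfp866 had medians of 0.18 after oxaliplatin and -0.16 after cisplatin, and Zfp930 was called higher with oxaliplatin than with cisplatin (0.43 ± 0.15 (SE), DESeq2 adjusted p = 0.0236). On chromosome 10 the cluster from Zfp433 to Zfp938 had the highest median after cisplatin, 0.13, of which Zfp781 was the one called member. After oxaliplatin the member with the smallest adjusted p did not pass in the clusters led by Zfp953 on chromosome 13 (-0.36 ± 0.26 (SE)), Zfp646 and Zfp93 on chromosome 7 (0.21 ± 0.11 (SE) and 0.26 ± 0.23 (SE)) and Zfp869 on chromosome 8 (0.22 ± 0.13 (SE)).

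**Figure D5:**
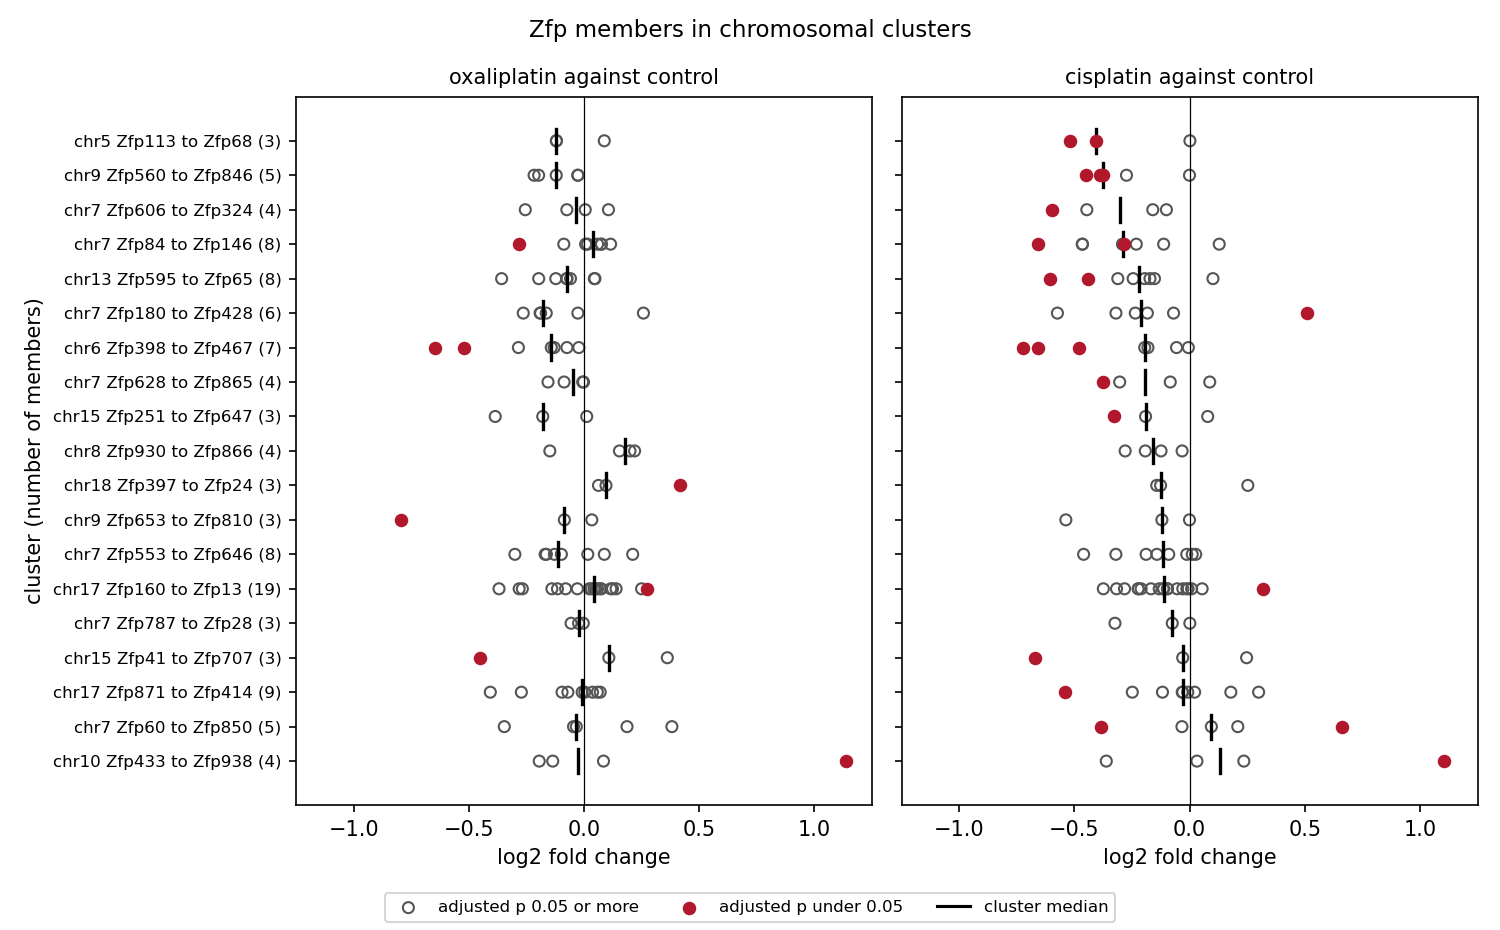
Log2 fold changes (x axis) of members in the 19 clusters (y axis, named by chromosome and first and last member, with the number of members) after oxaliplatin (left) and cisplatin (right); filled points passed the test, open points did not, bars are medians. Medians after cisplatin run from -0.41 on chromosome 5 to 0.13 on chromosome 10, and filled points stand on both sides of 0 in the cluster from Zfp60 to Zfp850.

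The levels of the family were led by members without KRAB. Per kb of exon Zfp706, which restrains pluripotency genes, had a mean of 1020 normalised counts, Zfp207 761 and Zfp106, an RNA-binding protein needed for neuromuscular upkeep, 667, against a median of 64.6 over members. Zfp106 had normalised counts of 6218 and 6605 in control, 7025 and 7035 in oxaliplatin and 7207 and 7630.3 in cisplatin libraries and rose with both drugs, by 0.13 ± 0.05 (SE) (DESeq2 adjusted p = 0.0328) and 0.21 ± 0.05 (SE) (adjusted p = 0.000177). The first lost its call without control replicate 1 (0.323) or any drug library (0.0625 to 0.258), and the latter without cisplatin replicate 2 (0.0533). Zfp706 had 5177 and 5317 in control, 4820.1 and 4910.1 in oxaliplatin and 5110.4 and 5147 in cisplatin libraries and was not called with either drug (-0.11 ± 0.05 (SE) and -0.03 ± 0.05 (SE)).

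Of 29 Zfp genes listed for a known role, 26 were members, and Zfp423, Zfp708 and Zfp819 were under the count limit with mean raw counts of 0.833, 41.9 and 7.69. Of the 26, 4 rose and 4 fell after cisplatin (15.4% in each direction, near the 15.7% and 12.4% of all genes tested), and 0 rose and 1 fell after oxaliplatin (Zfp207, DESeq2). Their median log2 fold changes were -0.0027 after cisplatin and -0.01 after oxaliplatin. In the group that silences retroelements or protects imprints, no member passed with either drug. Zfp57, which keeps methylation at imprinting control regions, had 833 and 792 in control, 658 and 693 in oxaliplatin and 728 and 649.8 in cisplatin libraries and changes of -0.27 ± 0.11 (SE) (DESeq2 adjusted p = 0.0585) and -0.24 ± 0.11 (SE) (adjusted p = 0.0862), with both treated groups below both controls. Zfp445, which acts beside it at imprints, had 1787 and 1891 in control, 1791 and 1789.9 in oxaliplatin and 1708 and 1657 in cisplatin libraries. Zfp568, which silences a placental Igf2 transcript, and Zfp809, which silences retroviruses, were at 0.13 ± 0.14 (SE) and -0.00042 ± 0.17 (SE) after cisplatin, and Zfp932 and Zfp429 at -0.0018 ± 0.17 (SE) and 0.10 ± 0.30 (SE).

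Among promoter and chromatin factors, Zfp217, a partner of the CoREST complex, was called after cisplatin near the threshold, at -0.28 ± 0.12 (SE) (DESeq2 adjusted p = 0.0496), with 652 and 649 in control, 618 and 571 in oxaliplatin and 516 and 555 in cisplatin libraries, and passed in 4 of 15 alternative settings, none of which left out a library. The other 7, Zfp143, Zfp148, Zfp281, Zfp335, Zfp384, Zfp410 and Zfp644, did not pass with either drug, at -0.14 to 0.13 after cisplatin. Zfp410, the activator of Chd4, was at 0.13 ± 0.09 (SE). Among developmental regulators Zfp521 and Zfp503 fell after cisplatin and Zfp703, the paralogue of Zfp503 and a breast cancer oncogene, rose. Zfp503 had 1219 and 1011 in control, 998 and 1070.5 in oxaliplatin and 859.7 and 907 in cisplatin libraries and changed by -0.34 ± 0.11 (SE) (DESeq2 adjusted p = 0.0117), and Zfp703 had 1161 and 1021 in control, 1136 and 1118 in oxaliplatin and 1338 and 1284 in cisplatin libraries and changed by 0.27 ± 0.09 (SE) (adjusted p = 0.0164). The call of Zfp503 was lost without control replicate 1 (0.312) or either cisplatin library (0.0726 and 0.176), and that of Zfp703 without any library but control replicate 1 (0.059 to 0.319). Zfp521 lost its cisplatin call without cisplatin replicate 1 (0.0671). Zfp516, an activator of brown fat genes, was at -0.08 ± 0.07 (SE).

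Both listed members that act in translation rose after cisplatin. Zfp598, the ubiquitin ligase that marks collided ribosomes, had 1211 and 1145 in control, 1278 and 1262 in oxaliplatin and 1484 and 1423 in cisplatin libraries. Both cisplatin libraries were above all others, by 0.30 ± 0.08 (SE) against control (DESeq2 adjusted p = 0.00101), while oxaliplatin gave 0.11 ± 0.08 (SE) (adjusted p = 0.363). Zfp622, which matures the large ribosomal subunit, had 911 and 893 in control, 955 and 961 in oxaliplatin and 1099 and 1105 in cisplatin libraries, with 0.29 ± 0.09 (SE) after cisplatin (DESeq2 adjusted p = 0.00465) and 0.09 ± 0.09 (SE) after oxaliplatin (adjusted p = 0.536). The differences between drugs were -0.19 ± 0.08 (SE) and -0.20 ± 0.09 (SE) and did not pass (DESeq2 adjusted p = 0.0574 and 0.072). The call of Zfp598 was lost without control replicate 2 (0.0784) or cisplatin replicate 1 (0.1), and that of Zfp622 without any control or cisplatin library (0.0626 to 0.134). Zfp638, an RNA- and DNA-binding protein of viral DNA silencing, with 2115 and 2305 in control, 1982 and 1965 in oxaliplatin and 1931 and 1997 in cisplatin libraries, fell after cisplatin, with a change of -0.17 ± 0.07 (SE) (DESeq2 adjusted p = 0.0498) and passed in 5 of 15 alternative settings, of those that left out a library only without control replicate 1. Zfp326 of the DBIRD splicing complex, the nucleolar Zfp330, Zfp830 and the SUMO ligase Zfp451 did not pass, at 0.17 ± 0.08 (SE), 0.0019 ± 0.07 (SE), -0.07 ± 0.15 (SE) and 0.08 ± 0.09 (SE).

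The corepressors through which KRAB proteins act were measured in the same libraries. All 28 listed genes were tested. After cisplatin 10 rose and 4 fell (35.7% and 14.3%, beside 15.7% and 12.4% of all genes tested), and after oxaliplatin 4 rose and 2 fell (14.3% and 7.14%, beside 10.7% and 9.5%). Most of these genes had mean counts over 1000. Of the other protein-coding genes with mean raw counts of 1000 or more, 33.7% rose and 15.7% fell after cisplatin. After oxaliplatin 23.6% of those genes rose and 16.8% fell. The corepressor shares after cisplatin were thus near those of genes of like level. The medians were 0.06 and 0.02. Trim28, the platform itself, had 7381 and 7015 in control, 6749 and 6941 in oxaliplatin and 7056 and 7230.2 in cisplatin libraries and did not pass, at -0.01 ± 0.05 (SE) after cisplatin and -0.07 ± 0.05 (SE) after oxaliplatin. Setdb1, which methylates histone H3 lysine 9, rose with cisplatin, with 1787 and 1824 in control, 1924 and 1894 in oxaliplatin and 2055 and 2137 in cisplatin libraries and 0.21 ± 0.07 (SE) (DESeq2 adjusted p = 0.0057). Of the heterochromatin proteins, Cbx1 and Cbx3 rose by 0.28 ± 0.06 (SE) and 0.21 ± 0.05 (SE) (DESeq2 adjusted p = 8.05e-06 and 0.000107) and Cbx5 fell, with 11649 and 12685 in control, 11971 and 12146 in oxaliplatin and 9260.1 and 9791 in cisplatin libraries and -0.35 ± 0.05 (SE) (adjusted p = 7.83e-11). The DNA methyltransferase gene Dnmt3a fell with both drugs, with changes of -0.45 ± 0.10 (SE) and -0.34 ± 0.10 (SE) (DESeq2 adjusted p = 5.10e-05 and 0.00282).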

How the data were processed

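RNA sequencing of TRAMP-C2 cells was analysed in 6 libraries, 2 each for control, oxaliplatin and cisplatin, made from poly(A) RNA with a stranded kit. Groups and replicate numbers came from the labels. Per the labels, the authors aligned reads with STAR 2.5.3a and estimated counts per gene with RSEM 1.3.0 on GRCm38.p6. The deposited values are expected counts, in which reads that fit several genes are divided among them, and whether strand was used in counting is not given in the sources used here. Other cell lines and doses were not analysed here. One listed prostate marker is not reported here.

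Expected counts were rounded to whole numbers, and the 14956 of 54446 genes that reached 10 counts in 2 or more libraries were tested in 1 DESeq2 1.42.0 model over all 6 libraries (R 4.3.3). It used independent filtering at 0.1, Wald tests, unshrunken log2 fold changes, and Benjamini-Hochberg adjustment over the genes kept by that filtering, with a threshold of 0.05. No adjusted p was given for 2900 genes after oxaliplatin, 1740 after cisplatin and 2900 between the drugs. These genes could not be called but are counted in the shares of all genes tested. Every member had an adjusted p. Normalised counts are counts divided by DESeq2 size factors. Of the IDs, 54409 matched GENCODE M21. C2H2 fingers were counted in 1 protein per gene, that with the longest coding part. KRAB was searched in all annotated proteins with a profile (E-value of at most 0.001). In simulated data for cisplatin against control, 88% of 200 genes changed by a log2 of 1 were recovered among 14956. Of the calls in simulated data, 4.35% were false for cisplatin and 6.81% for oxaliplatin. Only 2 members changed by a log2 of 1 or more with either drug, so 88% does not give the recovery of the smaller changes reported here.

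Named were the 5 members with the largest called rise and fall in each comparison whose libraries did not overlap, the 3 of highest level, in each cluster of at least 4 the member with the smallest adjusted p in each drug, the role list, members at the limits and members called in opposite directions. Members and lists were chosen with earlier results of these data known. Alternatives were edgeR 4.0.16 (quasi-likelihood), TMM and total-count scaling, other filters and member limits, only the libraries compared, a length and GC trend, a replicate block and leaving out each library.

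Same-numbered libraries did not deviate together (correlations of 0.07, -0.05 and -0.19 over 10731 genes), so no pairing was used in the comparisons reported.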

Additional observations from a re-analysis of the deposited data

How the results depend on the processing

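No median over all members and no call of a named member changed direction under the alternatives run, but the oxaliplatin median of members with KRAB turned from -0.04 to 0.01 without control replicate 2. EdgeR's quasi-likelihood test called more members, with 58 after oxaliplatin (20 higher, 38 lower), 100 after cisplatin (21 and 79) and 65 between the drugs (53 and 12), against 25, 56 and 24 with DESeq2. Members with whole counts in all libraries, a limit chosen after seeing the data, gave 12, 32 and 11 calls because fewer genes were counted, and an oxaliplatin median of -0.0581. With the replicate number as a block the calls were 9, 25 and 13, and crossing the numbers between the drugs, also chosen after seeing the data, left 8. The block ended 25 of 53 calls of single named members and changed no direction. Leaving out 1 library gave 3 to 11 calls after oxaliplatin, 15 to 31 after cisplatin and 8 to 16 between the drugs, with fewer samples to estimate spread, and medians of -0.0492 to -0.0189, -0.16 to -0.12 and 0.0944 to 0.1021. Total-count scaling moved the medians to -0.0467, -0.182 and 0.125. With mean raw counts of at least 50 they were -0.0455, -0.163 and 0.116, with at least 200 the difference between drugs was 0.0769, and among members that overlap no other coding gene 0.1155. With the length and GC trend removed the cisplatin median was -0.1175 and the difference between drugs 0.0711, and 16 members were higher and 12 lower with oxaliplatin than with cisplatin, in place of 20 and 4. The causes of these shifts were not tested. Of the 53 calls, 13 held in every alternative run (Zfp1, Zfp449 and Zfp467 after cisplatin, Zfp746 after both drugs, Zfp180, Zfp207 and Zfp367 after cisplatin and between the drugs, and Zfp521 and Zfp651 between the drugs). Without control replicates 1 and 2, 22 and 29 were lost, without the oxaliplatin libraries 27 and 28, and without the cisplatin libraries 29 and 25. Calls that had no adjusted p once a library was left out are not in these numbers. Clusters numbered 18 with at most 250 kb between neighbours and 23 with at most 1000 kb. Members of low count and divided reads limit what these libraries can show for single KRAB genes.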
